A study of Mus musculus with 24 samples.

Results

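Pramel6, Pramel7, Tex13 and Dub1a are 4 genes of the 22609 gene symbols counted in poly-A RNA libraries of mouse embryonic stem cells. They were found by symbol, and they were chosen from these data as the largest named rises in cells carrying a hairpin against Ring1b. Their levels with that hairpin are therefore given as a description, with no test. The tests below concern the other comparisons, some of which reuse control libraries that took part in the choice. All 4 genes passed the filter on low counts, which kept 16280 genes.

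The cells were E14TG2a, a feeder-independent embryonic stem cell line of the 129/Ola strain (mESCs), grown in serum with LIF, the cytokine that holds such cells in self-renewal. The study made 24 libraries, 3 in each of 8 groups. In 3 groups the cells carried a stable short hairpin against Med12 (shMed12), against Cdk8 (shCdk8) or with no target in mammals (shNMC), and had been kept for 24 h without LIF in 1e-06 M all-trans retinoic acid (RA), which starts differentiation. The mESC groups, still in LIF, carried shRing1b, shMed12, shCdk8 or shNMC, or were untransfected. No group combined shRing1b with RA. The RA groups differ from the mESC groups in RA and in LIF, which cannot be told apart, so a change with RA below covers both. The labels do not say how many hairpins or clones stood behind each target, or whether replicates were separate cultures, so p-values measure the spread between these libraries, which may be technical.

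Ring1b, the product of Rnf2, is the catalytic subunit of Polycomb repressive complex 1, which ubiquitinates histone H2A at silenced genes. Med12 and Cdk8 belong to the kinase module of Mediator, the complex that links transcription factors to RNA polymerase II. Pramel6 and Pramel7 encode leucine-rich repeat proteins of the Prame family. Pramel7 is known from the inner cell mass and from naive stem cells, where it acts downstream of LIF and Stat3 and joins a Cullin2 ubiquitin ligase that degrades Uhrf1, the partner of the maintenance DNA methyltransferase Dnmt1. Tex13 is an X-linked gene known for its expression in testis. Dub1a encodes a deubiquitinating enzyme of the Usp17 family, a cluster of near copies whose first members were described as cytokine-induced genes of blood cells.

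The promoter windows of the 4 genes, and of Dub1 as the neighbouring copy of Dub1a, are shown because the CpG content of a promoter is a feature that the choice of genes did not use. Each runs from 250 bases before the annotated start to 50 after it, 5′ to 3′ on the strand of the gene, with CpG dinucleotides in capitals. They are RefSeq sequences of build GRCm38.p6, the reference strain and not 129/Ola, whereas the counts were made on mm9 per the submitters' processing notes. The windows lie at chr2:87506315-87506614 on the plus strand for Pramel6, chr2:87492369-87492668 on the minus strand for Pramel7, chrX:140813384-140813683 on the minus strand for Tex13 (Tex13b in RefSeq), chr7:104842534-104842833 on the minus strand for Dub1a (Usp17lb) and chr7:104856766-104857065 on the plus strand for Dub1 (Usp17la). Tex13, Dub1a and Dub1 were matched to these RefSeq genes by synonym, and the annotation used for counting is not given, so that their windows, neighbours and shared transcript words rest on an uncertain match.
Pramel6: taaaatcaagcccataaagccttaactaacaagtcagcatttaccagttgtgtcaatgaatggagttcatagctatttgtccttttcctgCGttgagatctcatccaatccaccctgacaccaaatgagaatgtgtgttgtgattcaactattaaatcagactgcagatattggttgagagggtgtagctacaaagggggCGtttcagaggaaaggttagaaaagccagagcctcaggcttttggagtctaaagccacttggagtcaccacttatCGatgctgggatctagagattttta
Pramel7: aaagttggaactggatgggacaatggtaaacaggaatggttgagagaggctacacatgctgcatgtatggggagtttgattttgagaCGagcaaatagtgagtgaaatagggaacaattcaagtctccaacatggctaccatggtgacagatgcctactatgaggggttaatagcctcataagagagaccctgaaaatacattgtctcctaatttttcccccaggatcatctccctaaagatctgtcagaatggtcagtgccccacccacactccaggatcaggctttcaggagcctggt
Tex13: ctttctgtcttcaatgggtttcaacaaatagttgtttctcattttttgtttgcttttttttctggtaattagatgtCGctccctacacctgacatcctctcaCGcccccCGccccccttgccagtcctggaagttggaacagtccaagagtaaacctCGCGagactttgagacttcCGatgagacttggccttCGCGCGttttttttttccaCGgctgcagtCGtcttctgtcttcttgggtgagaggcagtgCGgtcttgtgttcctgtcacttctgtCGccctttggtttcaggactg
Dub1a: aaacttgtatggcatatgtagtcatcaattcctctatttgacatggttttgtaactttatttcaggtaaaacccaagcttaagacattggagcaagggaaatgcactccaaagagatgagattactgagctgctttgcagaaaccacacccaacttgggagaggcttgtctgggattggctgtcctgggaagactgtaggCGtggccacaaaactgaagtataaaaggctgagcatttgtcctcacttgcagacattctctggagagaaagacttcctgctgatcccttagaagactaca
Dub1: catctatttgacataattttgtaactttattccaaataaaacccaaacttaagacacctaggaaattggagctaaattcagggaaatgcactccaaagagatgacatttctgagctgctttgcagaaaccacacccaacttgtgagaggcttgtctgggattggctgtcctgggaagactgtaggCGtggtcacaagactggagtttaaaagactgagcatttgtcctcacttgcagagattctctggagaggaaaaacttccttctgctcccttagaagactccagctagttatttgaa

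The windows held 3 CpG for Pramel6, 1 for Pramel7, 13 for Tex13, 1 for Dub1a and 1 for Dub1, against a median of 7 over the 32851 promoter windows of the same length (quartiles 3 and 20). Tex13 thus had the one promoter of the 4 with more CpG than the median window. The 2 Dub windows were 92.2% identical over 270 aligned bases. The motif TATAAA, searched on both strands, stood 31 bases before the start of Dub1a and in none of the other 4 windows, and was found in 13.6% of all windows. Neither CACGTG (7.15% of windows), GCGGGA (20.0%) nor TTCCNGGAA (1.15%) was found in any of the 5.

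The genes sit in 3 neighbourhoods. The annotated starts of Pramel6 and Pramel7 are 14.1 kb apart and point away from each other, with no other gene of the annotation between them, among olfactory receptor genes. Of those receptors Olfr1124, Olfr1126 and Olfr1128 had 0 reads over the 24 libraries, and Olfr153 ranged from 0.0386 to 1.41 CPM, gene counts per library size with TMM scaling. Dub1a and Dub1 start 14.4 kb apart, again divergently, between Usp17le and Olfr665, which had 4 reads in all. Tex13 lies on the X chromosome between Mid2 and Vsig1. Mid2 ranged from 0.255 to 4.58 CPM and Vsig1 from 0 to 0.688 CPM.

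The shRing1b and untransfected libraries held 27.4 to 34.1 M gene counts and the other 18 held 37.8 to 57.3 M. Reads with several alignments made 20.0% to 21.7% of entries in those 6 libraries and 44.1% to 49.1% in the 18, so the comparison of shRing1b with shNMC crosses a technical divide and that with untransfected cells does not. Rnf2 itself had 52.4, 64.2 and 207 CPM in the 3 shRing1b libraries. Its range was 240 to 277 CPM with shNMC and 221 to 302 CPM without a hairpin, so the library named shRing1b replicate 3, just under both ranges, goes against its label. Med12 had 35.2 to 46.2 CPM in shMed12 mESCs and 129 to 140 CPM in shNMC mESCs, and Cdk8 10.7 to 15.2 CPM in shCdk8 mESCs and 50.1 to 56.1 CPM in shNMC mESCs.

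Pramel6, Pramel7 and Tex13 were highest in shRing1b replicate 2, where Dub1a was also high, and Dub1a was highest in replicate 1. Tex13 had 2.06, 52.6 and 1.34 CPM in shRing1b replicates 1, 2 and 3, against 0.353, 0.433 and 0.246 CPM with shNMC and 0.742, 0.399 and 0.446 CPM in untransfected cells. Its level in replicate 2 was 99.4 times the untransfected mean, and in the other 2 libraries 3.89 and 2.53 times. Pramel6 had 3.71, 46.1 and 0.742 CPM with shRing1b, against 0.145, 0.669 and 0.221 CPM with shNMC and 0.148, 0.798 and 0.483 CPM in untransfected cells. The shRing1b libraries did not overlap shNMC, but replicate 3 lay within the untransfected range.

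Pramel7 had 6.77, 17.2 and 1.90 CPM with shRing1b, against 0.353, 0.787 and 0.344 CPM with shNMC and 0.779, 1.32 and 0.743 CPM in untransfected cells. Its libraries came in the same order as those of Pramel6, with a smaller span. Dub1a had 50.2, 31.5 and 6.65 CPM with shRing1b, against 2.49, 3.44 and 1.77 CPM with shNMC and 1.85, 4.31 and 3.64 CPM in untransfected cells. Here replicate 1 was highest, and the 2 libraries with low Rnf2 stood at 15.4 and 9.64 times the untransfected mean. In these bulk libraries more cells expressing a gene and more RNA per cell cannot be told apart.

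All 4 genes had their 3 shRing1b libraries above every shNMC library, which the ranking that chose them required. Pramel7, Tex13 and Dub1a also lay above every untransfected library, and Pramel6 did not. The share of all genes with libraries so separated was not counted, and nothing is read from this separation, because the shRing1b levels chose the genes. Over all genes 20.2% were called against shNMC and 15.1% against untransfected cells, with 12.9% and 9.68% higher, from which nothing is read because these contrasts chose the genes. The shares rest on the spread shared by 24 libraries, since with the compared groups fitted alone edgeR called 8 and 0 genes instead of 3294 and 2459. The log2 change against shNMC was 5.73 for Tex13, 5.56 for Pramel6, 4.09 for Pramel7 and 3.51 for Dub1a, and against untransfected cells 5.12, 5.15, 3.18 and 3.17 in the same gene order. Without shRing1b replicate 2 the change of Tex13 was 2.27 against shNMC and 1.66 against untransfected cells, that of Pramel6 2.63 and 2.22, and that of Pramel7 3.09 and 2.19. Without shNMC replicate 2 the change of Pramel6 against shNMC was 6.51. Without shRing1b replicate 1 the change of Dub1a was 2.88 against shNMC and 2.54 against untransfected cells. Without replicate 3, whose Rnf2 was near the controls, the changes against untransfected cells were 5.68 for Tex13, 5.73 for Pramel6, 3.67 for Pramel7 and 3.65 for Dub1a. The named genes just below Dub1a in the ranking against shNMC were Usp26, an X-linked deubiquitinase gene of testis, at 3.29, Dub1 at 3.15 and the tubulin gene Tuba3b at 2.97.

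**Figure D1:**
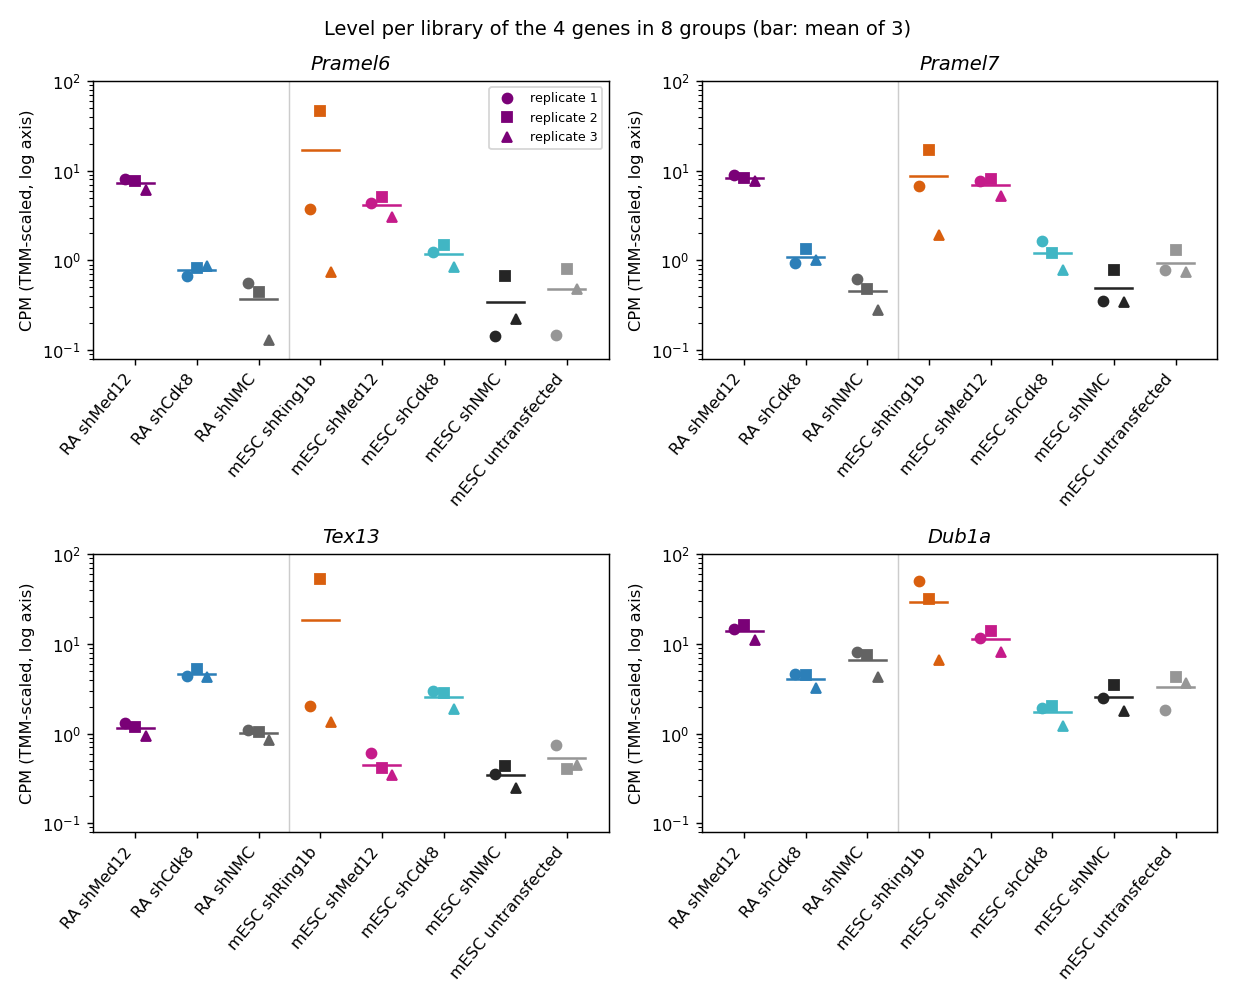
CPM (TMM-scaled, log axis) of the 4 genes in each of 24 libraries, by group; symbols mark the replicate number and bars the mean of 3. Replicate 2 of shRing1b reaches 46.1 CPM for Pramel6 and 52.6 CPM for Tex13, while replicate 1 is highest for Dub1a at 50.2 CPM.

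Other genes also differed between the 3 libraries. Pramel3, Zscan4c and Zfp352 are named here after their values were seen. Primitive endoderm markers (Gata4, Gata6, Sox17, Sox7, Dab2 and Foxa2) summed to 91.9, 520 and 27.7 CPM in shRing1b replicates 1, 2 and 3, against 37.6 to 51.4 CPM for shNMC and 53.5 to 75.2 CPM without a hairpin. None of the 6 was at 0 in any group, and their part in the levels of Tex13 and Pramel6 in replicate 2 was not tested. Pramel3, an X-linked member of the family, had 3.29 CPM in replicate 2 and 0.202 and 0.148 CPM in replicates 1 and 3. Its range was 0 to 0.0415 CPM with shNMC and 0 to 0.0399 CPM without a hairpin. Replicate 2 thus stood at 128 times an untransfected mean near 0. Zscan4c and Zfp352, both markers of the 2-cell-like state, differed in order. Zscan4c had 46.8, 19.3 and 10.1 CPM, in the order of Dub1a, and Zfp352 had 12.9, 13.5 and 4.19 CPM, with replicate 2 highest. The pluripotency markers Pou5f1, Nanog, Sox2, Zfp42, Esrrb and Tdgf1 summed to 4125 to 4528 CPM in shRing1b mESCs, 4563 to 4671 CPM in shNMC mESCs and 4297 to 4671 CPM without a hairpin. Against shNMC edgeR called 6 of 7 trophectoderm markers, 5 of 6 fibroblast genes and 13 of 16 spermatogonial genes higher with shRing1b, with medians of 2.42, 1.58 and 1.06. Of all genes 12.9% were higher there. Against untransfected cells 6 of 7, 3 of 6 and 15 of 16 were called higher, with medians of 1.85, 1.76 and 1.24, where 9.68% of all genes were higher. The trophectoderm markers summed to 73.0, 98.6 and 42.4 CPM in shRing1b replicates 1, 2 and 3, and the fibroblast genes to 32.5, 16.7 and 23.1 CPM. The part of these lists in the levels of the 4 genes was not tested.

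Pramel6 made 72.8% of the reads of the Pramel6 and Pramel7 pair in shRing1b replicate 2 (Wilson 95% interval 70.7% to 74.9%, counting error only). In the other 23 libraries the share lay between 16.0% and 54.8%. It is not corrected for transcript length and is read only across libraries.

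**Figure D2:**
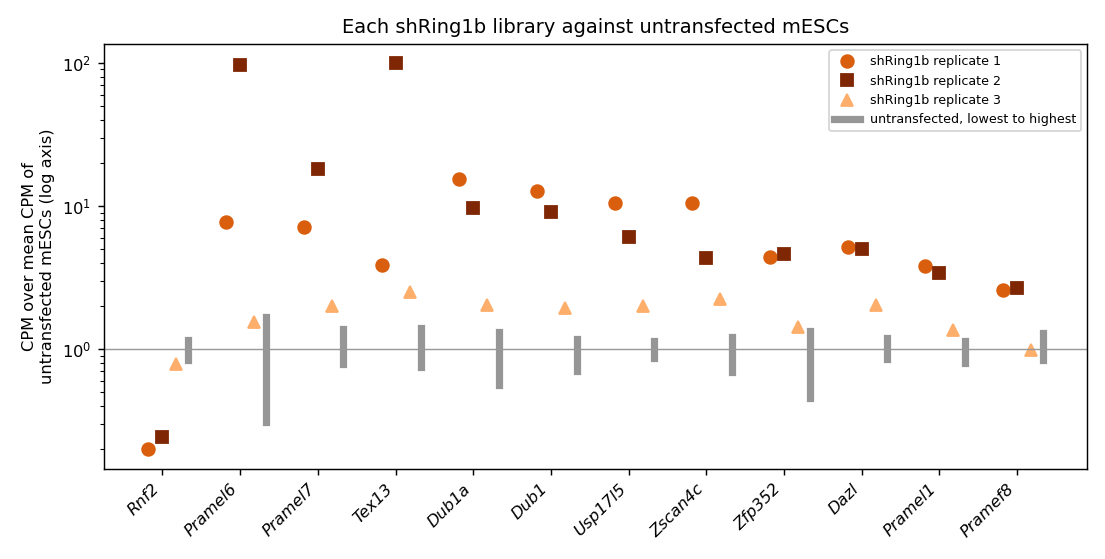
CPM of each shRing1b library over the mean CPM of untransfected mESCs (log axis) for Rnf2, the 4 genes and related genes, with a grey bar from the lowest to the highest untransfected library. Rnf2 is low in replicates 1 and 2 and near the controls in replicate 3. Pramel6 and Tex13 stand far above the other genes shown in replicate 2, and Pramel3 is not shown.

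Pramel6 and Pramel7 rose with shMed12 in both states. Pramel6 had 4.41, 5.10 and 3.06 CPM in shMed12 mESCs, against 0.145, 0.669 and 0.221 CPM in shNMC mESCs. The shMed12 libraries were all above the shNMC ones, with a log2 change of 3.56 ± 0.94 (SE, n = 3 each, edgeR quasi-likelihood test, adjusted p = 0.00445). Without shNMC replicate 2 that change was 4.51 (edgeR adjusted p = 0.00887). Pramel7 had 7.66, 8.0 and 5.22 CPM in shMed12 mESCs, against 0.353, 0.787 and 0.344 CPM in shNMC mESCs. It rose by 3.79 ± 0.54 on the log2 scale (edgeR adjusted p = 8.39e-06). Dub1a rose too, and 3 of the 4 genes were thus called higher, where 20.6% of all genes were higher and 40.5% called in either direction.

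After RA the picture was much the same for the Pramel pair. Pramel6 had 8.06, 7.61 and 6.15 CPM in RA shMed12 cells, against 0.554, 0.444 and 0.130 CPM in RA shNMC cells, a change of 4.26 ± 0.92 (edgeR adjusted p = 0.000835). Pramel7 had 8.93, 8.27 and 7.60 CPM in RA shMed12 cells, against 0.625, 0.479 and 0.279 CPM in RA shNMC cells, a change of 4.15 ± 0.54 (edgeR adjusted p = 2.80e-06). Neither group overlapped for either gene. These 2 were the members called, both higher, where 21.3% of all genes were higher and 41.9% called in either direction.

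The difference of the shMed12 effects between RA and mESCs was 0.70 ± 1.32 for Pramel6 and 0.37 ± 0.75 for Pramel7, and none of the 4 genes passed that interaction test in edgeR (0 at an unadjusted p under 0.05, 0 by DESeq2, 5.04% of all genes called). The mESC comparisons of shMed12, shCdk8 and shRing1b share the shNMC libraries, in which Pramel6 rested on 7, 34 and 9 reads. The RA comparison in shNMC cells, the differences of hairpin effects and the comparison with untransfected mESCs use them too. These libraries took part in the choice of the genes, which can favour genes low in them. Rises over mESC shNMC may therefore be overstated. In shMed12 cells the trophectoderm markers summed to 527 to 675 CPM, against 19.6 to 24.4 CPM with shNMC in mESCs, with 7 of 7 measured markers higher. In that comparison 20.6% of all genes were higher. Fibroblast genes summed to 336 to 381 CPM in shMed12 mESCs, against 10.5 to 11.5 CPM in shNMC mESCs, with 5 of 6 higher and Thy1 lower, and the part of either list in the Pramel levels was not tested. None of these markers was at 0 in the shMed12 libraries.

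With shCdk8 neither gene of the pair passed the test over 24 libraries. Pramel6 had 1.24, 1.47 and 0.848 CPM in shCdk8 mESCs, all above the shNMC libraries given above, a change of 1.73 ± 0.98 (edgeR adjusted p = 0.365). Pramel7 had 1.63, 1.21 and 0.776 CPM there, the lowest just inside the shNMC range, a change of 1.24 ± 0.56 (edgeR adjusted p = 0.242). In RA shCdk8 cells Pramel6 had 0.678, 0.819 and 0.862 CPM and Pramel7 0.926, 1.33 and 0.999 CPM, all above the RA shNMC libraries, with changes of 1.05 ± 0.96 and 1.23 ± 0.55 (edgeR adjusted p = 0.566 and 0.184). None of the 4 genes passed edgeR's test with shCdk8 in mESCs (3.66% of all genes called) or after RA (7.73%), 2 of them, Pramel7 and Tex13, had an unadjusted p under 0.05 in each state, and DESeq2, which here and below gave an adjusted p for 3 of the 4, not Tex13, called 0 in both.

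These tests share 1 estimate of spread over all 24 libraries, the 3 unlike shRing1b libraries included. The biological coefficient of variation was 0.676 for Pramel6, 0.404 for Pramel7, 0.612 for Tex13 and 0.376 for Dub1a in that fit, and 0.277, 0.206, 0.146 and 0.226 in a fit of the 18 libraries without shRing1b and untransfected cells, which was chosen after the data were seen. In the 18-library fit 3 of the 4 genes were called higher with shCdk8 in mESCs (9.36% of all genes higher), namely Pramel6 (adjusted p = 0.0109), Pramel7 (0.0206) and Tex13. After RA 2 were (12.5% of all genes higher), Pramel7 (edgeR adjusted p = 0.0113) and Tex13. The log2 changes themselves moved by at most a few hundredths.

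**Figure D3:**
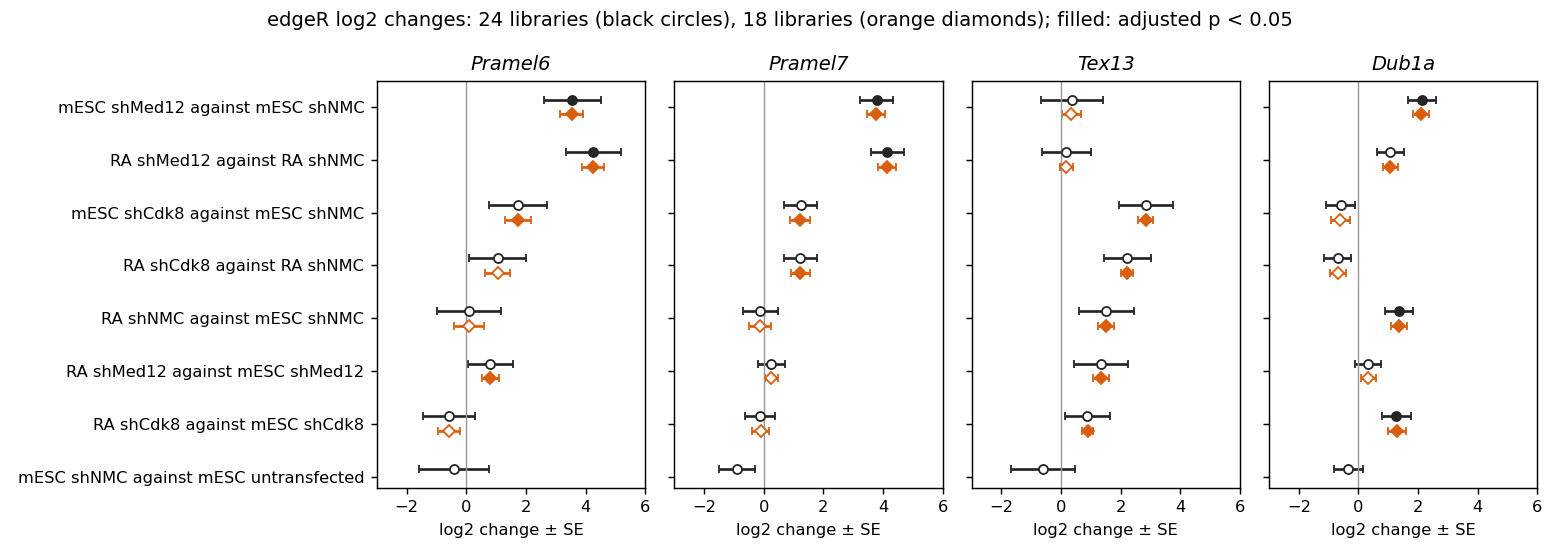
Log2 changes ± SE of the 4 genes in 8 comparisons with edgeR, from the fit of 24 libraries (black circles) and of 18 libraries (orange diamonds), with filled symbols at an adjusted p under 0.05. The changes coincide and the error bars shorten in the 18-library fit, most for Tex13, whose change with shCdk8 in mESCs is 2.86 ± 0.91 with 24 libraries.

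Neither gene of the Pramel pair passed the test with RA in shNMC cells, with a change of 0.10 ± 1.07 for Pramel6 and −0.12 ± 0.60 for Pramel7 in RA shNMC against mESC shNMC (edgeR adjusted p = 0.949 and 0.887). In shMed12 cells the RA libraries of Pramel6 were all above the mESC ones, by 0.80 ± 0.76 (edgeR adjusted p = 0.432, and 0.0236 with 18 libraries). The order of the group means of Pramel6 was shRing1b, RA shMed12, mESC shMed12, mESC shCdk8, RA shCdk8, untransfected, RA shNMC and mESC shNMC. Of these neighbours the libraries of shMed12 did not overlap between RA and mESCs, and those of mESC shMed12 did not overlap mESC shCdk8, while all other neighbours overlapped. For Pramel7 mESC shMed12 and mESC shCdk8 were the one pair of neighbours without overlap.

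Tex13 followed another pattern, with levels above the control with shCdk8 and overlapping it with shMed12. It had 2.95, 2.83 and 1.86 CPM in shCdk8 mESCs, against 0.353, 0.433 and 0.246 CPM in shNMC mESCs. The change was 2.86 ± 0.91, which did not pass over 24 libraries (edgeR adjusted p = 0.0826) and did over 18 (1.0e-06). After RA it had 4.40, 5.28 and 4.33 CPM in shCdk8 cells, against 1.11, 1.05 and 0.857 CPM in shNMC cells. There too the groups did not overlap, with a change of 2.21 ± 0.79 (edgeR adjusted p = 0.0904 over 24 libraries and 8.06e-07 over 18).

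With shMed12 Tex13 had 0.60, 0.410 and 0.342 CPM in mESCs, overlapping shNMC, a change of 0.37 ± 1.03 (edgeR adjusted p = 0.808). In RA shMed12 cells it had 1.31, 1.18 and 0.933 CPM, overlapping RA shNMC as well, a change of 0.18 ± 0.81 (edgeR adjusted p = 0.875). RA raised the mean level in each line without passing over 24 libraries. The change was 1.52 ± 0.93 in shNMC, 1.34 ± 0.91 in shMed12 and 0.88 ± 0.74 in shCdk8 cells (edgeR adjusted p = 0.179, 0.257 and 0.334), the groups did not overlap in any of the 3, and over 18 libraries all 3 were called higher (adjusted p = 8.32e-05, 0.000270 and 0.000420). In that fit 2 of the 4 genes were called higher in each line, where 33.6%, 28.7% and 33.5% of all genes were higher in shNMC, shMed12 and shCdk8 cells. The order of its group means was shRing1b, RA shCdk8, mESC shCdk8, RA shMed12, RA shNMC, untransfected, mESC shMed12 and mESC shNMC, in which RA shCdk8, mESC shCdk8 and RA shNMC each stood above the next group without overlap. Its counts were low, with 10 to 22 reads per library in shNMC mESCs and 103 to 133 in shCdk8 mESCs.

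Dub1a rose with shMed12 in mESCs and with RA. It had 11.6, 14 and 8.08 CPM in shMed12 mESCs, against 2.49, 3.44 and 1.77 CPM in shNMC mESCs, without overlap, a change of 2.12 ± 0.47 (edgeR adjusted p = 0.000987). In RA shMed12 cells it had 14.7, 16.4 and 11.1 CPM, against 8.15, 7.58 and 4.26 CPM in RA shNMC cells. That change of 1.08 ± 0.44 did not pass (edgeR adjusted p = 0.0546), but did with the replicate number as a block (0.0170) and over 18 libraries (0.00174), where 3 of the 4 genes were called higher and 27.8% of all genes were. The difference of the shMed12 effects between RA and mESCs, −1.04 ± 0.63, did not pass either (edgeR adjusted p = 0.411).

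With RA Dub1a was higher in shNMC cells by 1.37 ± 0.46 (edgeR adjusted p = 0.0177), the one gene of the 4 called there, where 27.3% of all genes were higher and 51.4% called. The call was lost without RA shNMC replicate 1 (adjusted p = 0.0686) or mESC shNMC replicate 3 (0.0669). In shCdk8 cells it had 4.60, 4.5 and 3.25 CPM after RA, against 1.93, 2.02 and 1.21 CPM in mESCs, a rise of 1.27 ± 0.48 (edgeR adjusted p = 0.0318), again the one gene of the 4 called, where 26.7% of all genes were higher and 51.7% called. That call was lost without RA shCdk8 replicate 1 (0.0826) or 2 (0.0795) and without mESC shCdk8 replicate 1 (0.0571) or 3 (0.118). In shMed12 cells the RA change was 0.32 ± 0.44 (edgeR adjusted p = 0.592), and none of the 4 genes was called (0 at an unadjusted p under 0.05, 0 by DESeq2, 37.1% of all genes called).

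shCdk8 went the other way in level without passing, with a change of −0.59 ± 0.49 in mESCs and −0.69 ± 0.45 after RA (edgeR adjusted p = 0.570 and 0.389). The difference of the shCdk8 effects between RA and mESCs passed for none of the 4 genes in edgeR (0 at an unadjusted p under 0.05, 0 by DESeq2, 0.0369% of all genes called). Between shNMC and untransfected mESCs none of the 4 passed edgeR's test either (0 at an unadjusted p under 0.05, 0 by DESeq2), where 1 gene of all, or 0.00614%, did, with 608 of all genes at an unadjusted p under 0.05. In that comparison Pramel7 had the largest difference of the 4, −0.91 ± 0.60. RA comparisons move with the scaling, since counts per plain total would raise the changes by 0.25 in shNMC, 0.15 in shMed12 and 0.23 in shCdk8 cells, which turns the sign of the Pramel7 change in shNMC and shCdk8 cells. The group means of Dub1a ran in the order shRing1b, RA shMed12, mESC shMed12, RA shNMC, RA shCdk8, untransfected, mESC shNMC and mESC shCdk8, and the libraries of all neighbours overlapped.

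The reads of Dub1a are partly shared with its copies. Of the 50-base words of the GENCODE transcripts of Usp17lb, 21.4% occur in transcripts of another gene, against 0% for Pramel6, 1.43% for Pramel7 and 0.291% for Tex13b. The longest open reading frames of Dub1a and Dub1 were 91.1% identical, and 20.1% of the words of Dub1 and 44.7% of those of Usp17l5 were shared, so their separate counts are uncertain. Of the Usp17-like list 4 genes are in the files and 3 were tested, all 3 of which rose with shMed12 in mESCs, with RA in shNMC cells and with RA in shCdk8 cells. Over all genes 20.6%, 27.3% and 26.7% were higher in these comparisons, in that order. Dub2a had 0 reads in all libraries.

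Dub1, the nearest copy, had 13.9, 16.6 and 9.16 CPM in shMed12 mESCs, against 3.09, 4.92 and 2.53 CPM in shNMC mESCs, a rise of 1.90 ± 0.45 (edgeR adjusted p = 0.00172). Usp17l5 rose by 1.77 ± 0.40 (edgeR adjusted p = 0.00114). In RA shMed12 against RA shNMC cells Usp17l5 rose, by 1.5 ± 0.38 (edgeR adjusted p = 0.00314), and Dub1 changed by 0.78 ± 0.42 (0.141). Dub1a had 0.486 to 0.693 reads per Dub1 read in the 9 RA libraries and 0.658 to 0.990 in the 15 mESC libraries, ranges that overlap at their ends.

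**Figure D4:**
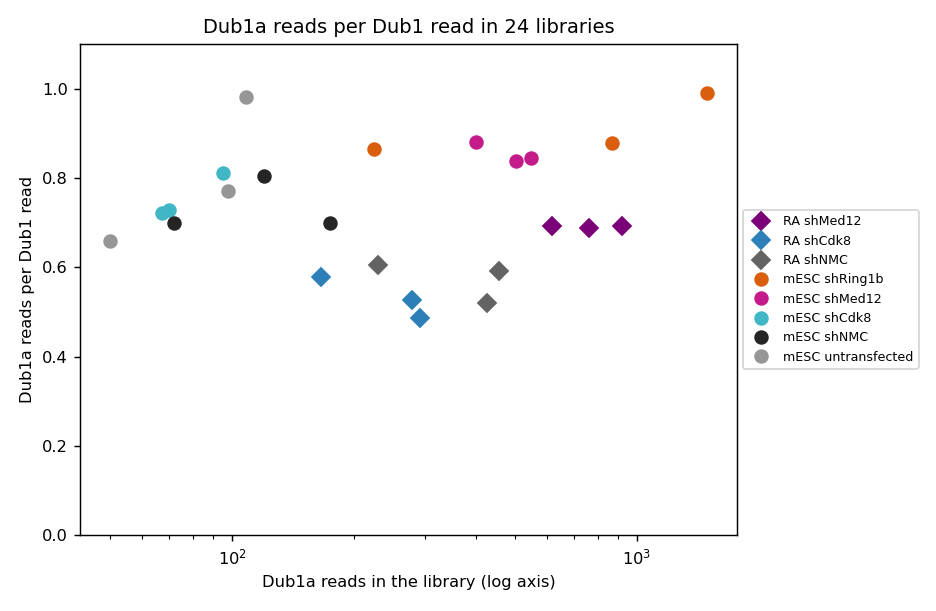
Dub1a reads per Dub1 read against the Dub1a reads of each library (log axis), with diamonds for RA and circles for mESCs. The 9 RA libraries lie between 0.486 and 0.693 and the 15 mESC libraries between 0.658 and 0.990.

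Among the Pramel and oogenesin genes 15 were in the files and 9 were tested, the 2 members included. With shMed12 in mESCs 5 rose and 0 fell (median log2 change 1.03, against −0.01 over all genes tested, of which 20.6% were higher). Beside the pair these were Pramef6, Pramef8 and Pramef12. Pramef6 had 2.58, 3.39 and 1.79 CPM in shMed12 mESCs, against 0.810, 0.787 and 0.541 CPM in shNMC mESCs, a rise of 1.84 ± 0.42 (edgeR adjusted p = 0.00117). Pramef8 rose by 1.03 ± 0.26 (edgeR adjusted p = 0.00324) and Pramef12 by 0.76 ± 0.13 (4.27e-05).

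In RA shMed12 against RA shNMC cells the same 5 rose (median 0.70, against 0.00 over all genes, of which 21.3% were higher and 20.6% lower). Prame, the founder of the family, was called lower there, on 2, 0 and 0 reads with shMed12 and 13, 2 and 4 reads with shNMC. Prame had 0.573, 1.16 and 0.475 CPM with shRing1b, so its place among the tested genes may rest on that group. Over 18 libraries 8 genes of the list were tested, with 0 called lower in this comparison. With shCdk8 edgeR called 0 of the 9 in mESCs (median 0.41, against 0.00) and 0 of the 9 after RA (median 0.50, against 0.00). Of all genes 3.66% and 7.73% were called there. Pramef6 went against the pair with shCdk8, with a change of −1.80 ± 0.52 in mESCs (edgeR adjusted p = 0.0550). RA in shNMC cells raised 1 of the 9, Pramef6, by 1.08 ± 0.42 (edgeR adjusted p = 0.0353), where 27.3% of all genes were higher. The lists were drawn up with earlier results of these data known.

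**Figure D5:**
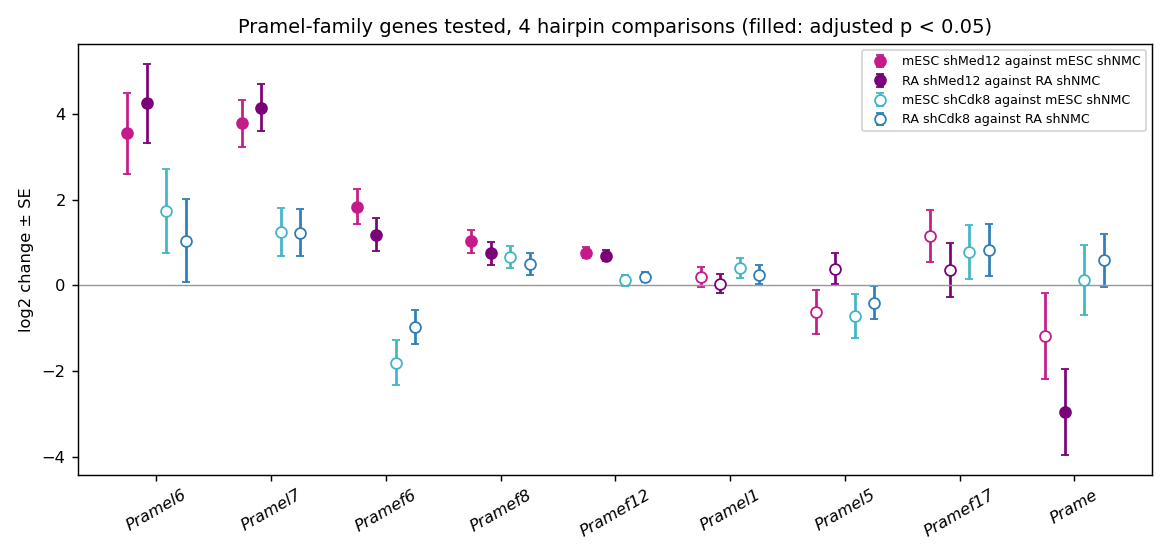
Log2 change ± SE of the 9 tested Pramel-family genes with shMed12 and shCdk8, each against shNMC in the same state, with filled symbols at an adjusted p under 0.05 (edgeR, 24 libraries). With shMed12 Pramel6, Pramel7, Pramef6, Pramef8 and Pramef12 are higher in both states, and with shCdk8 no symbol is filled.

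In a list drawn up around Pramel7 most called genes were lower with shMed12 in mESCs. Of 11 genes for the Cullin2 ligase, Uhrf1, Dnmt1 and the LIF and Stat3 arm, 1 rose and 6 fell in shMed12 mESCs (median −0.27, against −0.01 over all genes, of which 19.9% were lower and 40.5% called). The 4 named below had the lowest p of the list over the tested comparisons, and values of the ligase genes and Dnmt1 are not given. The 6 pluripotency markers fell too, 6 of 6 in mESCs (median −0.95) and 6 of 6 after RA (median −1.01), where 19.9% and 20.6% of all genes were lower. The pluripotency markers summed to 2270 to 2512 CPM in shMed12 mESCs, against 4563 to 4671 CPM in shNMC mESCs, and their part in the falls of the 11 genes was not tested. The LIF receptor gene Lifr had 92.6, 90.8 and 96.4 CPM in shMed12 mESCs, against 202, 186 and 188 CPM in shNMC mESCs, a fall of 1.04 ± 0.10 on the log2 scale (edgeR adjusted p = 3.18e-08). Stat3 fell by 0.99 ± 0.08 (edgeR adjusted p = 3.24e-09) and its target Socs3 fell by 0.76 ± 0.25 (0.0176). Uhrf1 had 304, 310 and 353 CPM in shMed12 mESCs and 358, 393 and 367 CPM in shNMC mESCs, a difference of −0.21 ± 0.09 that did not pass (edgeR adjusted p = 0.0812).

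With RA 1 of the 11 rose and 6 fell in shNMC cells (median −0.55, against 0.02 over all genes, of which 24.1% were lower and 51.4% called). The RA cells were also without LIF, so RA and the loss of LIF cannot be told apart for these genes. Uhrf1 fell by 0.88 ± 0.09 (edgeR adjusted p = 1.61e-07) and Stat3 by 1.21 ± 0.08 (2.19e-10), while Pramel7 itself did not pass. These are RNA counts, which do not measure the degradation of the Uhrf1 protein. In RA shMed12 against RA shNMC cells 2 rose and 4 fell (median −0.02, against 0.00 over all genes, of which 41.9% were called), and Uhrf1 was among the rises, by 0.30 ± 0.09 (edgeR adjusted p = 0.0150). The shMed12 effect on Uhrf1 differed between RA and mESCs, by 0.51 ± 0.13 (edgeR adjusted p = 0.0282).

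The genes most like each of the 4 over the 24 libraries were found by the Pearson correlation of log2 CPM, as a description over libraries that share groups. For Pramel6 they were the cytokine gene Il34 (r = 0.960), Pramel7 (0.953) and Mtmr11 (0.949), and for Pramel7 they were Pramel6, the sialomucin gene Podxl (0.936) and Il34 (0.930). For Tex13 they included the zinc transporter gene Slc39a9 (0.931) and 1700080O16Rik (0.905), and for Dub1a they were Gm8300 (0.982), Dub1 (0.979) and Gm2022 (0.972). Pramel6 and Tex13, both highest in shRing1b replicate 2, had r = 0.448, and 0.126 without that library. Dub1a and Zscan4c had r = 0.947, and 0.954 without it.

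Zscan4c belongs to a list of 2-cell-like genes, of which 12 were in the files and 11 tested. With shMed12 in mESCs 10 rose and 0 fell (median 1.68, against −0.01 over all genes, of which 20.6% were higher). The rises were led by the BTB-domain genes Tdpoz3 (2.84 ± 0.45, edgeR adjusted p = 2.57e-05) and Tdpoz4 (2.79 ± 0.62, 0.00107). In RA shMed12 against RA shNMC cells all 11 rose (median 1.30, against 0.00 over all genes, of which 21.3% were higher). With shCdk8 in mESCs 0 rose and 1 fell (median −1.21, against 0.00 over all genes, of which 1.42% were lower). Over 18 libraries 0 rose and 7 fell, where 6.96% of all genes were lower. Usp17l5 is on this list as well as on that of the Usp17-like genes, and several of its genes, Zscan4c and Zscan4d among them, have near copies whose reads may be shared.

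Of 16 spermatogonial genes tested, from the setting for which Tex13 is known, 1 rose and 0 fell with shCdk8 in mESCs (median −0.20, against 0.00). That is near the share of 3.66% called over all genes, and the one gene was Usp26. Usp26 had 18.4, 24.0 and 19.4 CPM in shCdk8 mESCs, against 10.0, 12.6 and 10.3 CPM in shNMC mESCs, a rise of 0.91 ± 0.23 (edgeR adjusted p = 0.0284), and it rose by 0.90 ± 0.23 after RA (0.0169). With shMed12 in mESCs 1 of the 16 rose and 9 fell (median −0.77, against −0.01 over all genes, of which 40.5% were called), among them the RNA-binding protein gene Dazl by 1.33 ± 0.25 on the log2 scale (edgeR adjusted p = 0.000182), Tex14 by 1.51 ± 0.20 (3.24e-06) and Tex11 by 1.5 ± 0.22 (8.55e-06). Of the 16, 7 rose and 1 fell with RA in shNMC cells (median 0.61, against 0.02), a count near the share of 51.4% called over all genes.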

How the data were processed

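Poly-A RNA of 24 libraries was sequenced strand-specifically with 50 bp reads, per the labels. The deposited values are raw counts of reads per gene symbol, 1 table per library. The submitters' processing notes name build mm9, HTSeq 0.6.1p1, STAR 2.3.1z13, DESeq2 1.6.3, SAMtools 1.2 and bcl2fastq 1.8.4. What each did, the annotation and whether counting used strand: not given in the sources used here. Entries that name no gene were left out of library sizes: reads with several alignments (20.0% to 49.1%), in no feature (8.70% to 17.3%) or ambiguous (0.111% to 0.197%). Shared reads of near copies may thus be missing. Whether more of them are missing in the 18 libraries was not tested.

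Counts were fitted with edgeR 4.0.16 in R 4.3.3, with filterByExpr, TMM and 1 mean per group over 24 libraries (16 residual degrees of freedom, common biological coefficient of variation 0.145). Quasi-likelihood F tests were two-sided, with Benjamini-Hochberg adjustment over 16280 genes and calls at 0.05. The SE is the log2 change over the square root of F. CPM uses gene totals times TMM factors. On simulated counts for shMed12 against shNMC in mESCs the fit recovered 93.5% of genes changed by 2-fold and 100% at 4-fold and 8-fold, with 7 false calls among 15960 genes. Every gene was simulated at the common coefficient, below the 0.376 to 0.676 of the 4 genes, and genes with few reads were not changed. The rates therefore do not extend to the 4 genes. Alternatives were DESeq2 1.42.0, median-ratio factors, no filter, compared groups alone, a replicate block, each library left out and, chosen after the data were seen, 18 libraries. Replicates of each group differed beyond counting noise (mean chi-square per gene 7.17 to 126). A floor of 3 counts equals 0.0523 to 0.109 CPM.

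Replicate numbers, taken from the labels' titles, were checked by the correlation of same-numbered residuals. Among groups compared, all 3 were over 0.1 for RA shCdk8 with RA shNMC (0.475, 0.287 and 0.537) and with mESC shCdk8 (0.358, 0.169 and 0.371). They also were for 4 pairs of groups not compared with each other, RA shCdk8 and RA shNMC each with mESC shMed12, RA shNMC with mESC shCdk8 and mESC shCdk8 with mESC shMed12. The genes and lists were chosen with earlier results of these data known. Named were the 4 genes, the hairpin targets, called family members (at most 6 per list), up to 4 genes per list by lowest p, the 3 most correlated genes (1 of those for Tex13 is not reported here), chromosomal neighbours and the next 3 in the shRing1b ranking. Promoters are RefSeq windows. Transcripts are GENCODE M21 on GRCm38, and identities were computed with Biopython.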

Additional observations from a re-analysis of the deposited data

How the results depend on the processing

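The calls of Pramel6 and Pramel7 with shMed12 in both states, and of Dub1a with shMed12 in mESCs, held under each alternative run (leaving out single libraries, adjusted p up to 0.0271). DESeq2, where it gave an adjusted p, median-ratio factors and no filter kept the direction and the side of the threshold of every tested value of the 4 genes. DESeq2 gave no adjusted p for Tex13. The replicate block kept 47 of 48 and moved Dub1a in RA shMed12 against RA shNMC past the threshold (1.11). The cause of the changes below was not tested, except that the alternatives use fewer libraries.

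With the compared groups alone, these passed in addition: with shCdk8 in mESCs Pramel6 (1.73), Pramel7 (1.23) and Tex13 (2.85), with shCdk8 after RA Pramel7 (1.23) and Tex13 (2.21), with shMed12 after RA Dub1a (1.07), and with RA Tex13 in shNMC (1.53), shMed12 (1.33) and shCdk8 cells (0.90) and Pramel6 in shMed12 cells (0.80). Over the 18 libraries without shRing1b and untransfected cells the same 10 passed, at 1.72, 1.22, 2.85, 1.23, 2.22, 1.07, 1.52, 1.35, 0.89 and 0.81 in that order. The Pramel7 difference of shCdk8 effects, −0.01 over 24 libraries, was 0.0039 with the groups alone and 0.018 with 18 libraries. On plain totals the RA shCdk8 means were 0.885 CPM for Pramel6 and 5.26 CPM for Tex13.

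Leaving out single libraries, the change with RA ranged from 1.08 to 1.44 for Dub1a in shCdk8 and 1.2 to 1.66 in shNMC cells, with calls lost as reported. Uncalled values changed sign: with RA Pramel7 in shCdk8 cells (−0.35 to 0.15), Pramel6 (−0.28 to 1.07) and Pramel7 (−0.40 to 0.42) in shNMC cells, Pramel6 in shNMC against untransfected mESCs (−1.36 to 0.15), the differences of shCdk8 effects for Pramel7 (−0.53 to 0.27) and Dub1a (−0.37 to 0.086), and of shMed12 effects for Pramel6 (−0.28 to 1.08), Pramel7 (−0.18 to 0.64) and Tex13 (−0.41 to 0.077). The shRing1b changes spanned 2.63 to 6.51 for Pramel6 and 2.27 to 6.29 for Tex13 against shNMC, and 2.22 to 5.73 and 1.66 to 5.68 against untransfected cells, lowest in each case without shRing1b replicate 2.

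Counts of called genes moved more. For shRing1b they were 3294 against shNMC (8 with the groups alone, 2015 to 4678 leaving out libraries) and 2459 against untransfected cells (0, and 1328 to 3900). For shCdk8 in mESCs 596 were called, with 2645 over 18 libraries, 1151 by DESeq2, 2334 alone, 905 with the block and 170 to 282 leaving out libraries, and after RA 1259, with 3760, 2744 alone and 482 to 922. For the difference of shMed12 effects 820 were called (2642, 1250, 2237 and 489 to 830), and of shCdk8 effects 6 (67, 27, 38, 11 with the block and 3 to 6). The 1 call between shNMC and untransfected cells was 0 alone. Low counts limit the precision, with as few as 4 reads for Pramel6 and 10 for Tex13 in a library of untransfected cells.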
